A study of Homo sapiens with 6 samples.

Results

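The translocase of the outer membrane (TOM) is the complex through which nearly all proteins made in the cytosol enter mitochondria. Its receptors TOMM20, TOMM22 and TOMM70 bind precursor proteins at the mitochondrial surface, and the small subunits TOMM5, TOMM6 and TOMM7 sit beside the channel and set how stably the complex is assembled. TOMM34 is a cytosolic cochaperone that binds precursors together with the HSP70 and HSP90 chaperones. RNA of these 7 genes was measured in PANC-1, a cell line established from a human pancreatic carcinoma, with and without maslinic acid (MA), a pentacyclic triterpene of olive. The genes were chosen by name from a table of 58825 genes, and where a name had several identifiers the one with the highest mean level was taken. Of 8 subunit names 7 were analysed, and 1 was not analysed here.

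In the group called MA PANC-1, 3 samples received 40 μM MA for 24 h, and in the group called PANC-1, 3 samples received none. The study's methods name DMSO as the control treatment of its cells, while the labels of these samples call them untreated and name no solvent. Both groups are the same unmodified line, so the results describe 1 line at 1 dose and 1 time. The study's methods call the 3 samples of each group biological replicates. In RNA from whole cultures, fewer cells and less RNA per cell cannot be told apart. Levels are given in FPKM, which are fragments scaled for transcript length and sequencing depth, and can be compared between genes.

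The totals of estimated counts, which are estimates and not reads, were 56978375, 63984133 and 58181114 for MA replicates 1 to 3. The untreated libraries held 70275355, 65607669 and 59422939. One library stood apart from the others: on the first principal component, which held 26.4% of the variance, MA PANC-1 2 was at -73.6 and MA PANC-1 1 at -29.5, while MA PANC-1 3 was at 16.2 and the untreated samples lay between 18.0 and 44.9. Results are therefore also given without MA PANC-1 2. Vimentin (VIM), a mesenchymal filament, was at 617 FPKM over the 6 samples, and the epithelial keratins KRT8 and KRT18 ranged from 141 to 338 FPKM in single samples. The ductal keratin KRT19 was at 0.0533 FPKM on average and so nearly absent, and KRT7 ranged from 1.40 to 2.19 FPKM. Markers of acinar, endocrine, leukocyte and endothelial cells averaged at most 0.0129 FPKM, and the fibroblast markers DCN and LUM 0.00257 and 0.513 FPKM.

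No TOM gene passed an adjusted p of 0.05 in edgeR's quasi-likelihood test, against 0.0394% of the 17774 genes tested. At an unadjusted p under 0.05, 2 of the 7 genes were past the threshold, TOMM7 with higher and TOMM20 with lower RNA after MA. Over all genes tested 11.2% were past it, 5.37% with higher and 5.86% with lower RNA. None of the 7 genes combined that p with a 2-fold change, which 1.92% of all genes did. DESeq2 also called none of the 7 at an adjusted p of 0.05, and 1 of them, TOMM7, at an unadjusted p under 0.05. Over all genes, DESeq2 called 263 at that adjusted p and 2150 at that unadjusted p. TOMM7 and TOMM20 were also the 2 of 7 genes whose FPKM values did not overlap between the groups, which was so for 19.9% of all genes tested. The median log2 fold change was 0.13 for the 7 genes and -0.0017 for all genes tested. All 7 genes passed the filter of a mean of 0.1 FPKM.

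**Figure D1:**
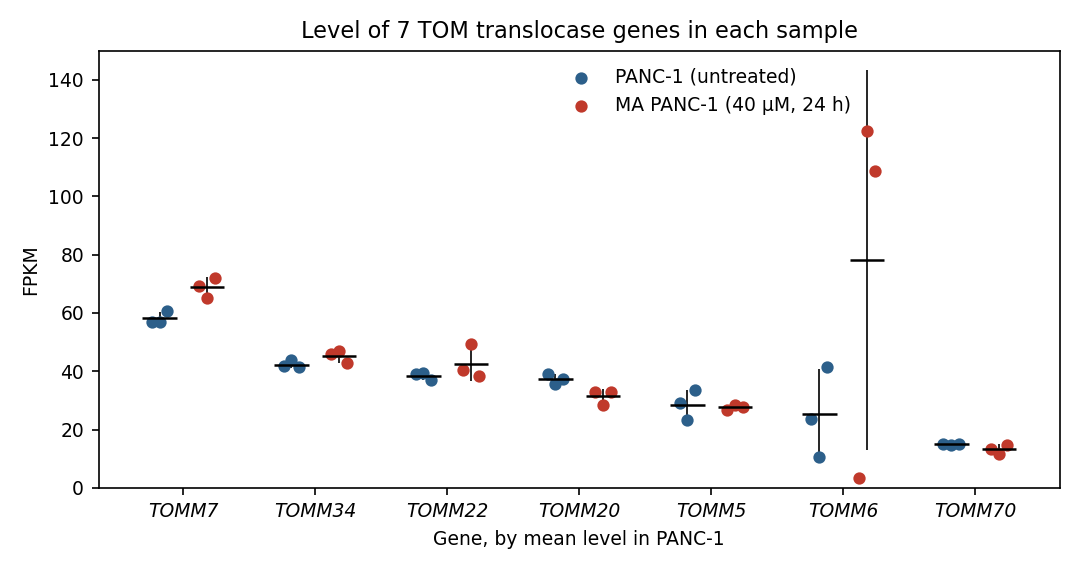
Level in FPKM (vertical axis, linear) of each TOM gene (horizontal axis, ordered by mean level in PANC-1) in 3 PANC-1 and 3 MA PANC-1 samples. Points are samples, horizontal lines means and vertical lines 1 SD. TOMM6 ranges from 3.22 to 122 FPKM within the MA group, while the other genes stay between 11.5 and 71.9 FPKM.

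The receptors were expressed at unequal levels. TOMM20 (ENSG00000173726, minus strand, chr1:235109341-235128837 in GRCh38) encodes the receptor for precursors with a cleavable presequence. Its level was 33.0, 28.6 and 33.0 FPKM in MA PANC-1 1, 2 and 3, and 38.9, 35.6 and 37.4 FPKM in PANC-1 1, 2 and 3. Every treated sample was below every untreated one. The means were 31.5 ± 2.54 FPKM with MA and 37.3 ± 1.65 FPKM without (SD, n = 3 each). The edgeR log2 fold change was -0.21 with a standard error of 0.082, an unadjusted p of 0.0371 and an adjusted p of 0.435. An exact permutation test on the FPKM of the 6 samples gave p = 0.1, the smallest value that 3 against 3 samples allow. Without MA PANC-1 2 the log2 fold change was -0.18, with an edgeR unadjusted p of 0.0364. The unadjusted edgeR p rose above 0.05 when MA PANC-1 1 was left out (0.0725) and when any untreated sample was, at 0.140, 0.0559 and 0.0876 for PANC-1 1, 2 and 3. An intron of TOMM20 holds the small nucleolar RNA gene SNORA14B, at a mean of 1.499 FPKM, with 0 exonic bases in common.

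TOMM22 (ENSG00000100216, plus strand, chr22:38681957-38685421) encodes the central receptor that links the peripheral receptors to the channel. Its level was 40.3, 49.3 and 38.4 FPKM with MA and 39.1, 39.5 and 37.0 FPKM without. MA PANC-1 2 was the highest of the 6 samples, MA PANC-1 3 lay among the untreated samples, and the groups overlapped. edgeR gave a log2 fold change of 0.19 with a standard error of 0.14 and an adjusted p of 0.603, and of 0.03 without MA PANC-1 2.

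TOMM70 (ENSG00000154174, minus strand, chr3:100363431-100401398) encodes the receptor for carrier proteins of the inner membrane, with docking sites for HSP70 and HSP90. It had the lowest mean of the 7 genes. Its level was 13.4, 11.5 and 14.8 FPKM with MA and 15.1, 14.6 and 14.9 FPKM without. The untreated samples lay closer together than for any other TOM gene, with a coefficient of variation of 1.82%, while the treated samples spread by 12.4% and their highest lay among the untreated ones. The log2 fold change was -0.14 with a standard error of 0.095 and an adjusted p of 0.595 in edgeR. Without MA PANC-1 2 it was -0.08.

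Among the small subunits, TOMM7 (ENSG00000196683, minus strand, chr7:22812628-22822852) was the most abundant TOM gene in untreated cells. Besides its place in the complex, its protein is known to help retain the kinase PINK1 at the outer membrane of damaged mitochondria. Its level was 69.4, 65.2 and 71.9 FPKM in MA PANC-1 1, 2 and 3, and 57.0, 57.1 and 60.7 FPKM in the untreated samples. All treated samples were above all untreated ones. The means were 68.8 ± 3.38 FPKM with MA and 58.2 ± 2.11 FPKM without (SD, n = 3 each). The edgeR log2 fold change was 0.28 with a standard error of 0.078, an unadjusted p of 0.00896 and an adjusted p of 0.388, which is a 1.21-fold higher level. The exact permutation p was 0.1. With each sample left out in turn the log2 fold change stayed between 0.26 and 0.30, and it was 0.28 without MA PANC-1 2.

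TOMM5 (ENSG00000175768, minus strand, chr9:37582646-37592604) was at 26.6, 28.5 and 27.7 FPKM with MA and at 29.2, 23.1 and 33.4 FPKM without. All 3 treated samples lay inside the untreated range. In edgeR its log2 fold change was -0.01 with a standard error of 0.14 and an adjusted p of 0.985, and its sign changed with the sample left out (-0.07 without MA PANC-1 2). TOMM5 shares 14.3% of its exonic bases with AL138752 and 9.33% with AL513165, 2 genes on its strand whose transcripts are all annotated as read-through, meaning that they run on from one gene into the next. AL513165 had a mean of 1.91 FPKM and AL138752 one of 0.0337 FPKM.

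TOMM34 (ENSG00000025772, minus strand, chr20:44942130-44960397), the cytosolic cochaperone, was the TOM gene with the next highest level after TOMM7 in untreated cells. It was at 45.9, 47.1 and 42.7 FPKM with MA and at 41.7, 43.8 and 41.5 FPKM without. MA PANC-1 1 and 2 were above all untreated samples, MA PANC-1 3 was not, and the groups overlapped. In edgeR its log2 fold change was 0.13 with a standard error of 0.097 and an adjusted p of 0.604, and 0.06 without MA PANC-1 2. On the plus strand it overlaps PABPC1L, at a mean of 3.47 FPKM, and reads in any shared bases can be told apart only if strand was used in counting.

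TOMM6 (ENSG00000214736, plus strand, chr6:41787662-41789898), whose protein steadies the assembled complex, gave by far the most variable values of the 7 genes. Its level was 3.22, 122 and 109 FPKM in MA PANC-1 1, 2 and 3, and 23.8, 10.5 and 41.6 FPKM in PANC-1 1, 2 and 3. MA PANC-1 1 was the lowest and MA PANC-1 2 and 3 were the highest of the 6 samples, so the treated samples lay on both sides of the untreated ones. The coefficient of variation was 83.5% with MA and 61.8% without, above those of 99.0% and 98.3% of the 11470 genes with a mean of at least 1 FPKM. The medians over those genes were 14.2% and 8.26%. The log2 fold change was 1.68 with a standard error of 1.07 and an adjusted p of 0.559 in edgeR, and the exact permutation p was 0.4. The study lists TOMM6 among genes with significantly higher RNA after MA, whereas its edgeR unadjusted p here was 0.159.

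The gene lies inside another. All 637 of its 637 exonic bases are also exonic in AL365205 (ENSG00000124593, plus strand, chr6:41780349-41790141), where they make up 14.2% of the 4479 exonic bases. The 3 transcripts of AL365205 are all annotated as read-through and start upstream of TOMM6, at the locus of PRICKLE4. Each of the 3 also holds the complete TOMM6 reading frame of 225 bases, of which 128 lie in the first and 97 in the second TOMM6 exon. A read within this frame can therefore belong to either gene, on the same strand. The frame is shown because it is the protein-coding part of the stretch that both genes share, 5′ to 3′ from the GENCODE release 29 transcript, between chr6:41787698-41789328 on the plus strand of GRCh38, with the start and stop codons in capitals.
TOMM6 coding sequence: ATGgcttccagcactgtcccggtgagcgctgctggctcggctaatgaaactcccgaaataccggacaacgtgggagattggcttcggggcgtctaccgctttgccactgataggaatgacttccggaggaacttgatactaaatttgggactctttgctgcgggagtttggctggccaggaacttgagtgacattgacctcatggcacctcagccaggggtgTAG

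**Figure D2:**
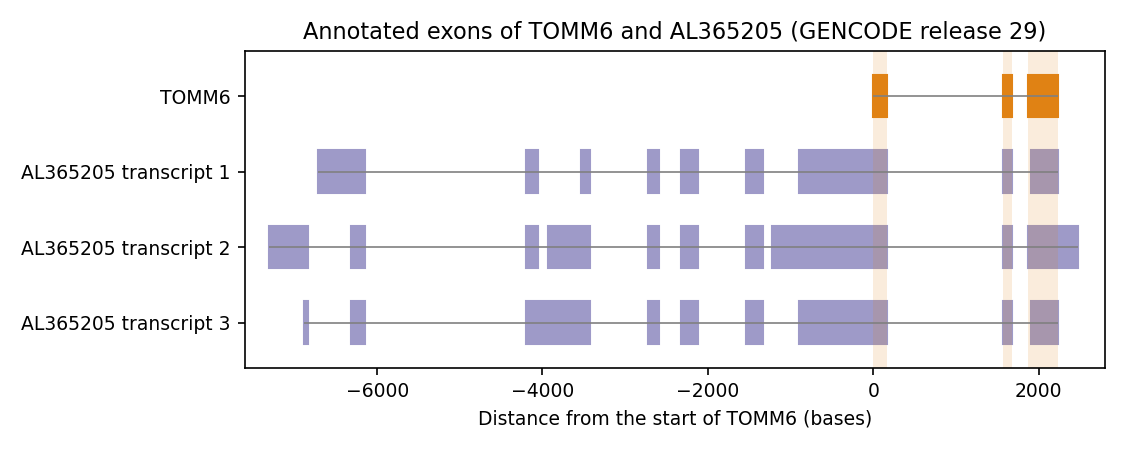
Exons (boxes) of the longer TOMM6 transcript and of the 3 AL365205 transcripts in GENCODE release 29, by distance in bases from the start of TOMM6 (horizontal axis); thin lines are introns and the shaded bands mark the TOMM6 exons. All TOMM6 exons fall on exons of AL365205, whose own exons begin at -7313 bases.

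AL365205 varied the opposite way. It had 14.9, 2.14 and 2.53 FPKM in MA PANC-1 1, 2 and 3, and 10.6, 10.8 and 9.46 FPKM in PANC-1 1, 2 and 3. The sample with the lowest TOMM6 level had the highest AL365205 level, and the 2 samples with the highest TOMM6 levels had the lowest. In estimated counts, TOMM6 and AL365205 had 140 and 4522 in MA PANC-1 1, 5966 and 734 in MA PANC-1 2, and 4808 and 789 in MA PANC-1 3. The untreated samples had 1271 and 3987, 525 and 3797, and 1877 and 2998. TOMM6 thus took 3.00%, 89.0% and 85.9% of the joint count in the treated samples and 24.2%, 12.1% and 38.5% in the untreated ones. PRICKLE4 itself had 10 to 133 estimated counts per sample and a mean of 0.324 FPKM.

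In the treated samples the sum of both genes spread much less than either gene, and in the untreated ones less than TOMM6. It was 4662, 6700 and 5597 estimated counts in MA PANC-1 1, 2 and 3, and 5258, 4322 and 4875 in PANC-1 1, 2 and 3. As CPM, counts scaled to a common library total, with the library factors of edgeR (TMM), this was 81.6, 111 and 94.5 with MA and 73.7, 65.5 and 80.8 without. Every treated sample was above every untreated one on that scale, but without the library factors MA PANC-1 1 at 81.8 fell just below PANC-1 3 at 82.0 CPM. The log2 fold change of the sum was 0.39 with a standard error of 0.14, an unadjusted p of 0.0285 and an adjusted p of 0.430 in edgeR, which is a 1.31-fold higher joint count. The exact permutation p on this scale was 0.1. Without MA PANC-1 2 the log2 fold change of the sum was 0.26 with an edgeR unadjusted p of 0.0717, past the threshold no longer. The call was also lost when MA PANC-1 3 (0.0511), PANC-1 1 (0.0677) or PANC-1 2 (0.1004) was left out.

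**Figure D3:**
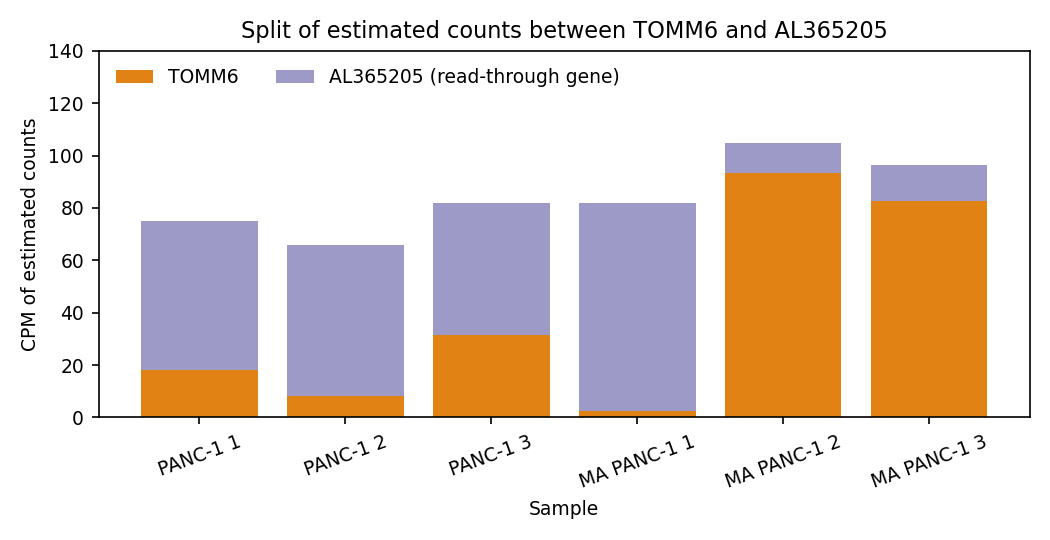
CPM of the estimated counts (vertical axis, without the library factors) of TOMM6 and AL365205, stacked, in each of the 6 samples (horizontal axis). The share of TOMM6 runs from 3.00% in MA PANC-1 1 to 89.0% in MA PANC-1 2, while the whole bars stay between 65.9 and 105 CPM.

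On the FPKM scale the division between the genes changes the sum itself, because 1 count gave about 7.02 times more FPKM in TOMM6 than in the longer AL365205. Summed FPKM was 18.1, 125 and 111 with MA and 34.4, 21.3 and 51.1 without. The contrast of the single genes also moved with single libraries. Without MA PANC-1 1 the log2 fold change of TOMM6 was 2.25 with an unadjusted p of 0.00363 and an adjusted p of 0.598, and that of AL365205 was -2.09 with an adjusted p of 0.0323 in edgeR, against -0.64 and 0.731 with all samples. Without MA PANC-1 2 that of TOMM6 was 1.14, with an adjusted p of 0.784, and that of AL365205 was -0.24. Without MA PANC-1 3 that of AL365205 was -0.25. How the reads of the shared exons were divided by the counting program was not tested, since the table holds no reads.

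**Figure D4:**
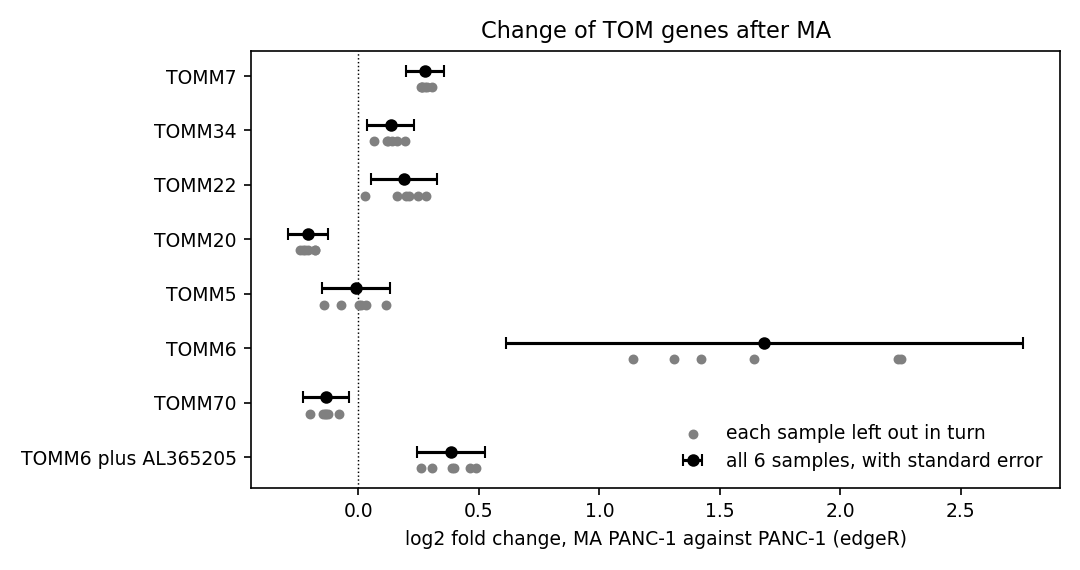
log2 fold change of MA PANC-1 against PANC-1 from edgeR (horizontal axis) for each TOM gene and for the sum of TOMM6 and AL365205. Black points are fits to all 6 samples with bars of 1 standard error, and grey points leave out each sample in turn. Those of TOMM6 run from 1.14 to 2.25, and those of TOMM5 lie on both sides of 0.

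In untreated cells the levels ran from TOMM7 at 58.2 ± 2.11 FPKM through TOMM34 at 42.3 ± 1.25, TOMM22 at 38.5 ± 1.35, TOMM20 at 37.3 ± 1.65, TOMM5 at 28.6 ± 5.17 and TOMM6 at 25.3 ± 15.6 to TOMM70 at 14.9 ± 0.270 FPKM (SD, n = 3). The values of TOMM22 and TOMM20 overlapped, as did those of TOMM5 and TOMM6, so neither pair has a settled order, and the range of TOMM6 also overlapped those of TOMM70, TOMM20, TOMM22 and TOMM34. With MA the means were 68.8 ± 3.38 FPKM for TOMM7, 45.2 ± 2.28 for TOMM34, 42.6 ± 5.84 for TOMM22, 31.5 ± 2.54 for TOMM20, 27.6 ± 0.979 for TOMM5 and 13.2 ± 1.64 for TOMM70, in the same order, with overlapping values of TOMM34 and TOMM22. The mean of TOMM6, 78.1 ± 65.2 FPKM, has no place in it because its samples lay at both ends of the range.

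The 7 genes together took 694, 784 and 784 CPM in the treated samples and 720, 673 and 744 in the untreated ones. With AL365205 added this became 773, 795 and 797 with MA and 776, 731 and 794 without. The groups overlapped in both sums, and MA PANC-1 1 was the lowest treated sample in each.

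The genes whose profiles over the 6 samples were closest to that of TOMM6 were all of low level. By the root mean square difference of log2(FPKM + 0.1) values centred on each gene's mean, these were PDIA3P2 at 0.80, AC022384 at 0.92 and AC068533 at 0.97, against a median of 1.86 over genes with a mean of at least 1 FPKM. In MA PANC-1 1 they were at 0.0773 FPKM, and at 0.0001 FPKM for both others, the value listed for a gene without reads. For the summed FPKM of TOMM6 and AL365205, the closest on the same measure were TMEM120B at 0.59, F11R, a tight junction adhesion molecule, at 0.60 and TRIM4 at 0.60, against a median of 1.10. Summed FPKM changes with the division of counts between the genes, so these neighbours do not describe the joint count. The closest genes of each search lie below its median by selection, so nothing is concluded from that distance.

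Precursors that pass TOM are handed to other machines, which were followed through 55 genes in 11 lists. They comprise TOM paralogs, the presequence translocase TIM23 with its motor, the carrier translocase TIM22 with small chaperones, the sorting and assembly machinery, oxidative folding, presequence processing, cytosolic chaperones, VDAC channels and quality control. In all, 53 of the 55 were tested, and TOMM20L was among those below the filter. None passed an adjusted p of 0.05 in edgeR, and 5 of 53 (9.43%) had an unadjusted p under 0.05, 4 with higher and 1 with lower RNA after MA, close to the share over all genes. None changed 2-fold, the log2 fold changes ran from -0.59 to 0.67, and their median was 0.09. With each sample left out, the count of import genes at an unadjusted p under 0.05 ran from 1 to 13. The 13 was without MA PANC-1 3, where 3213 of the 17774 genes tested were past that threshold. The 1 was without PANC-1 1 or PANC-1 2, where 1178 and 1373 of all genes were. Without MA PANC-1 2 the count was 2, beside 1834 of all genes.

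**Figure D5:**
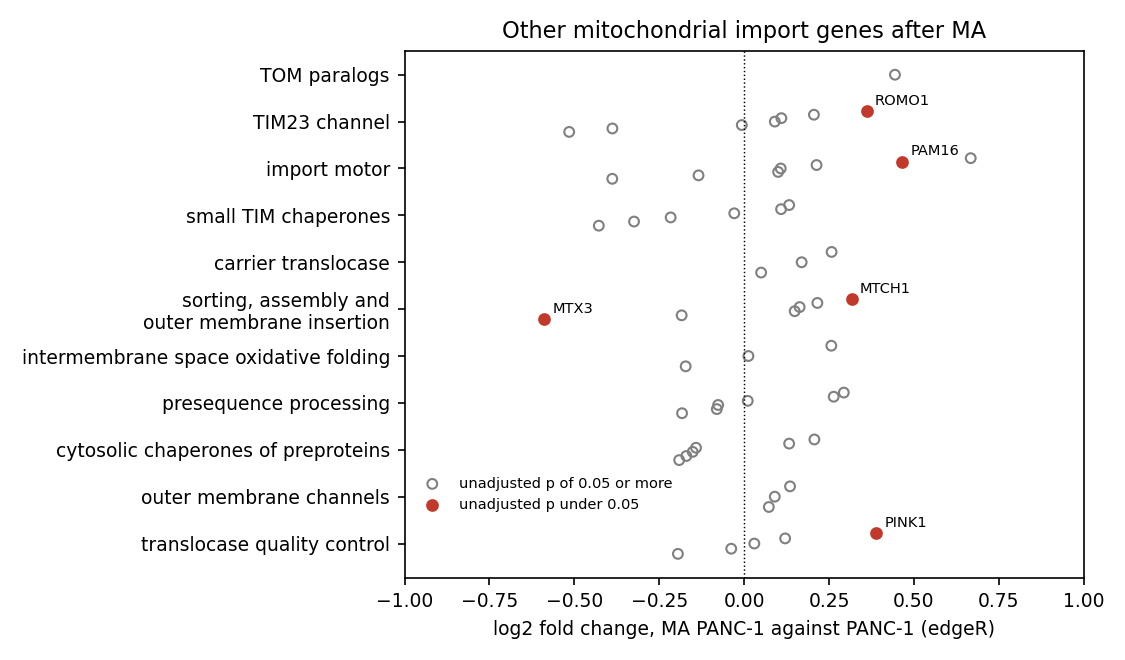
log2 fold change of MA PANC-1 against PANC-1 from edgeR (horizontal axis) for 53 other genes of mitochondrial import, grouped by list (vertical axis). Each point is a gene and the filled points have an unadjusted p under 0.05. MTX3 lies lowest at -0.59, and the 4 filled points on the right are between 0.32 and 0.46.

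In the sorting and assembly list, which builds and inserts outer membrane proteins, the FPKM values of 5 of 6 genes did not overlap between the groups, against 19.9% of all genes tested. Their directions were mixed, with SAMM50, MTCH1 and MTCH2 higher and MTX2 and MTX3 lower after MA. SAMM50, MTX2 and MTCH2 had edgeR unadjusted p of 0.0691, 0.117 and 0.0931. Over all lists the groups did not overlap for 13 of 53 genes, with 3 in the motor list, 1 each in 5 lists and 0 in 4 lists. MTCH1, a paralog of the insertase MTCH2, was at 57.4, 62.3 and 54.1 FPKM with MA and at 48.1, 43.9 and 51.5 without, a log2 fold change of 0.32 (standard error 0.11, edgeR unadjusted p 0.0241, adjusted p 0.429). MTX3, a metaxin, was at 2.08, 1.17 and 2.15 FPKM with MA and at 2.81, 2.80 and 2.66 without, a log2 fold change of -0.59 (standard error 0.21, edgeR unadjusted p 0.0254, adjusted p 0.429). Treated samples were all above untreated ones for MTCH1 and all below for MTX3, and without MA PANC-1 2 the log2 fold changes were 0.22 and -0.38. The edgeR unadjusted p of MTCH1 and MTX3 rose to 0.0640 and 0.0620 without PANC-1 1, and to 0.0908 and 0.0625 without PANC-1 2. The most abundant member, the insertase MTCH2, averaged 107 ± 3.11 FPKM with MA and 98.4 ± 1.44 without (SD, n = 3), with an adjusted p of 0.493 in edgeR.

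In the TIM23 channel list 1 of 7 genes was past the unadjusted threshold, against 11.2% of all genes tested. This was ROMO1, a small inner membrane protein, at 71.9, 83.6 and 64.5 FPKM with MA and 57.8, 60.5 and 58.1 without, with no overlap and a log2 fold change of 0.36 (standard error 0.14, edgeR unadjusted p 0.0354). The receptor TIMM50, the most abundant of the list, averaged 178 ± 24.2 FPKM with MA and 159 ± 4.49 without (SD, n = 3). In the motor list 1 of 7 genes was past it, PAM16, which regulates the motor's J protein, at 9.76, 12.4 and 9.18 FPKM with MA and 7.66, 8.73 and 6.97 without. Its samples did not overlap and its log2 fold change was 0.46 (standard error 0.18, edgeR unadjusted p 0.0337). Without MA PANC-1 2 those of ROMO1 and PAM16 were 0.21 and 0.28, with edgeR unadjusted p of 0.0547 and 0.0810. ROMO1 kept an unadjusted p under 0.05 in 1 of 6 fits with a sample left out, the one lacking MA PANC-1 3, and was at 0.0547 to 0.0929 in the others. PAM16 kept it in 3 of 6, and was at 0.0851 when PANC-1 1 and at 0.110 when PANC-1 3 was left out. The motor's chaperone HSPA9 averaged 104 ± 11.9 and 99.4 ± 8.72 FPKM.

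In the quality control list 1 of 5 tested genes was past the unadjusted threshold, against 11.2% of all genes tested. This was the kinase PINK1, which accumulates on TOM when import fails. It was at 12.8, 15.6 and 11.1 FPKM with MA and at 11.2, 9.96 and 10.0 without, with overlapping groups. The log2 fold change was 0.39 (standard error 0.16, edgeR unadjusted p 0.0463), and 0.20 with an unadjusted p of 0.0958 without MA PANC-1 2. PINK1 was past the threshold in 1 of 6 fits with a sample left out, the one lacking MA PANC-1 3 (0.0105), and at 0.0629 to 0.117 in the others. UBQLN1, a ubiquilin that binds membrane protein precursors, averaged 17.0 ± 2.95 FPKM with MA and 17.8 ± 0.520 without (SD, n = 3).

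The other 7 lists had no gene past the unadjusted threshold. TOMM40L, the only tested TOM paralog, was at 6.38, 7.54 and 6.60 FPKM with MA and at 6.89, 6.34 and 2.27 without, so that PANC-1 3 alone was low. Of the most abundant members, the chaperone HSP90AB1 averaged 623 ± 28.96 FPKM with MA and 582 ± 19.2 without, the channel VDAC1 112 ± 10.5 and 105 ± 11.3, and the small TIM chaperone TIMM10 58.6 ± 3.84 and 61.3 ± 11.7 (SD, n = 3). The import receptor of the intermembrane space, CHCHD4, averaged 20.4 ± 1.10 and 23.6 ± 1.26 FPKM, the translocase TIMM22 19.8 ± 1.62 and 17.0 ± 0.458, and the processing peptidase subunit PMPCA 12.7 ± 1.62 and 10.7 ± 0.907. The edgeR adjusted p of these 6 genes lay between 0.458 and 0.957.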

How the data were processed

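Poly(A) RNA of 6 PANC-1 samples was sequenced in pairs with a strand-marking (dUTP) kit. The submitters' processing notes name cutadapt 1.9, HISAT2 2.0.4, StringTie 1.3.4d, edgeR and DESeq2, and the positions equalled GENCODE release 29 (GRCh38) for 80.8% of genes. Whether counting used strand is not given in the sources used here. The authors deposited an FPKM per gene and sample, normalized for transcript length and depth, with 0.0001 for a gene without reads, and an estimated count in whole numbers without normalization. The estimated counts, whose totals of 56978375 to 70275355 per sample exceed the valid reads that the study lists, are not reads.

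The estimated counts of 17774 genes with a mean of at least 0.1 FPKM were tested with edgeR 4.0.16 (quasi-likelihood, TMM, no covariate, R 4.3.3), adjusted by Benjamini-Hochberg over all of them. Standard errors are the log2 fold change divided by the root of the quasi-likelihood F. Single genes had a two-sided exact permutation test. Alternatives were RLE size factors, DESeq2 1.42.0, limma 3.58.1 on log2(FPKM + 0.1) and log2(FPKM + 1), other filters and a replicate block. Further ones were halved counts, leaving out each sample, and sums with pseudogenes or overlapping genes. For the sum of TOMM6 and AL365205, the limma values match its CPM and not its summed FPKM. The steps were tested on simulated data with less spread between replicates than in these samples, so that test does not cover their noise.

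The members and lists were chosen with earlier results of these data known. Named import genes are, in each list, the one with the highest mean and those with an unadjusted p under 0.05. SAMM50 and MTX2 are outside this rule and were named for FPKM values that did not overlap between the groups. The neighbours in profile are the 3 closest genes. Replicates of 1 group all differed by more than counting noise. That comparison treats the estimated counts as reads and leaves out the spread between biological replicates, so nothing is concluded from it. MARCHF5 was matched by identifier, and all 55 import genes were found. An item of the lists is not reported here. No value of the study's proteomics was used.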

Additional observations from a re-analysis of the deposited data

How the results depend on the processing

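The log2 fold changes of TOMM7, TOMM20, TOMM22, TOMM34, TOMM70, TOMM6 and the TOMM6 sum kept their sign, and an adjusted p above 0.05, under every alternative that was run for them. TOMM5 turned to 0.0019 with the replicate block and 0.0027 when summed with its overlapping genes, and ran from -0.14 to 0.11 with each sample left out. TOMM6 moved from 1.68 to 0.39 when summed with its overlapping gene, and to 0.69 and 0.75 with limma on log2(FPKM + 0.1) and log2(FPKM + 1). The unadjusted p of TOMM7 was under 0.05 in 16 of 16 alternatives, that of TOMM20 in 11 of 16 and that of the TOMM6 sum in 10 of 14. TOMM7 has no named pseudogene or same-strand overlapping gene, so the summing alternatives left its own counts unchanged and could not move its call. The alternatives reuse the same samples and are not separate tests. The 10 include both limma fits of the sum, whose log2 fold changes of 0.34 match its CPM and not its summed FPKM. No limma fit on its summed FPKM is given. The count of TOM genes at an unadjusted p under 0.05 was 1 with DESeq2, 3 when summed with overlapping genes, and 1 to 2 with each sample left out, being 1 without any single untreated sample, and the count that were also 2-fold changed was 0 to 1, the 1 being TOMM6 without MA PANC-1 1. Over the import genes the unadjusted count was 1 to 13, with 1 without PANC-1 1 or 2, 2 without MA PANC-1 2 or PANC-1 3, and 13 without MA PANC-1 3.

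Over all genes, 7 passed an adjusted p of 0.05 in edgeR, 263 in DESeq2, 12 with a mean of at least 1 FPKM, 0 with the replicate block in edgeR (2215 at an unadjusted p under 0.05), and 3 to 24 with each sample left out, with 3 without PANC-1 2, 4 without MA PANC-1 1 and 24 without MA PANC-1 2. At an unadjusted p under 0.05 there were 1995, and 1178 to 3213 with each sample left out, with 1178 without PANC-1 1, 1201 without PANC-1 3 and 3213 without MA PANC-1 3. The count with an unadjusted p under 0.05 and a 2-fold change, 342, was 44 with limma on log2(FPKM + 1), 93 with a mean of at least 1 FPKM, 569 without a filter, and 326 to 534 with each sample left out, the 534 without MA PANC-1 3. By level in PANC-1, TOMM5 and TOMM6 held rank 5 to 6 and TOMM20 and TOMM22 rank 3 to 4 with each untreated sample left out. In all, 253 values under alternatives kept their side and sign, stayed within 1.5 times or held their rank, 27 moved and 6 changed sign. Side here means the side of an adjusted p of 0.05, which no TOM gene passed. A lost unadjusted call or a smaller fold change of the same sign therefore still counted as kept. The replicate numbers do not pair the samples by the labels, and the correlations of same-numbered deviations were 0.029 to 0.072, though all 6 samples correlated best with their own number. Under the block the log2 fold change of TOMM6 was 0.99 and no call of a TOM gene changed. Each TOM gene had at least 140 estimated counts in every sample.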

Other observations

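TIMM8B, a small TIM chaperone outside the rule for named genes and chosen after its values were seen, fell into high and low samples that did not follow the groups. The treated samples 1 to 3 had 46.1, 17.2 and 15.7 FPKM, and the untreated samples 1 to 3 had 40.9, 17.8 and 42.4 FPKM. In the motor list, the nucleotide exchange factor GRPEL2 was at 6.20 FPKM in MA PANC-1 2 and at 2.25 to 2.73 FPKM in the other samples, and GRPEL1 was at 17.0 FPKM in PANC-1 2 and at 8.71 to 9.69 FPKM in the other samples. Both were likewise chosen after their values were seen. Of 4 TOMM20 pseudogenes only TOMM20P4 had counts, 81 to 173 per sample, and none of 6 TOMM22 pseudogenes had any.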
